A study of Mus musculus with 8 samples.

Results

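The data set described here is the control arm of a mouse liver study, in which chromatin immunoprecipitation (ChIP) regions were set beside RNA abundance gene by gene. Members were the protein-coding genes of the deposited count table, 17132 of its 27277 genes, and the 13 encoded by the mitochondrial genome, none of which held a region, were set aside, which left 17119. Their RNA level was the mean of 3 control RNA libraries in CPM, counts scaled to the library total, and their occupancy came from 16995 regions called in 1 control ChIP library. These are 4 of the 8 samples of the series, and no knockout value was used.

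All 4 libraries came from primary hepatocytes, which carry out most of the liver's metabolism, isolated from mice of the genotype Lcmr1f/f cultured for 24 h and given 100 nM glucagon for 12 h. The floxed Lcmr1 gene (Med19, a Mediator subunit) is intact in these controls; the knockout, not used here, adds an albumin-cre. The sources used here do not give the age, sex or number of mice. They do not say either whether the RNA libraries stem from different mice or from the same one, so each SD covers only the spread between these 3 libraries. All samples received glucagon, so no value here shows a response to it.

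Transcription of a protein-coding gene by RNA polymerase II begins at the promoter, where the enzyme often pauses just downstream of the start. It then runs through the gene body and continues beyond the annotated end before it leaves the template. Mediator joins DNA-bound transcription factors to this polymerase at promoters and enhancers, whereas RNA polymerase III makes short RNAs such as tRNAs. An RNA level reflects both synthesis and decay, and in CPM a long mRNA yields more counts than a short one, so CPM levels below are ordered between genes only as abundance in the library.

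The labels do not settle what was precipitated. The titles of the ChIP samples read "RNA poll III", while the design text of the series names Lcmr1. Of 408 RefSeq tRNA genes, which RNA polymerase III transcribes, 4 overlapped a region (0.980%, Wilson 95% interval 0.382 to 2.49%), and only 1 of the 306 tRNA genes away from protein-coding genes did. Of 11 listed RNA polymerase III transcripts, only 3 were in the table. Rn7sk, Vaultrc5 and Rny1 each had a region at the start, with folds of 7.92, 7.15 and 5.25. All 3 stood under 1 CPM, where 4.11% of protein-coding genes had a start region. The identity of the target was not tested, and the text below speaks only of control regions. All intervals given are Wilson 95% intervals and cover counting of genes only, not variation between ChIP libraries, since 1 was made.

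Control replicate 1 stood apart from the other RNA libraries. The chi-square per degree of freedom of its counts was 134.9 against replicate 2 and 129.4 against replicate 3, while replicates 2 and 3 differed by 6.84, which is still more than sampling noise. Library totals were 26595249, 25059189 and 22191786 counts. The summed CPM of 18 immediate early genes, which cells switch on within minutes of a stimulus, was 3675 in replicate 1, 495 in replicate 2 and 443 in replicate 3. The 10 hepatocyte markers, all with a region over the body, summed to 89956, 95715 and 98326 CPM in the same order. Without replicate 1 the share of genes of 10 CPM or more with a region at the start was 47.8%, against 47.7% over all 3 libraries.

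Stretches of upstream sequence show the kinds of start that the results below turn on, as the 250 bases before the RefSeq start (GRCm38.p6, the build of the files) with each CpG dinucleotide in capitals. Tob1, an antiproliferative regulator, has a CpG-rich start and a high start fold. Pck1 and G6pc, which encode the gluconeogenic enzymes phosphoenolpyruvate carboxykinase and the catalytic subunit of glucose-6-phosphatase, have CpG-poor starts and fully covered bodies. C3, the central complement component, has regions over its body and none at its start. Ambp, the precursor of alpha-1-microglobulin and bikunin, is abundant in RNA and has no region.
Tob1: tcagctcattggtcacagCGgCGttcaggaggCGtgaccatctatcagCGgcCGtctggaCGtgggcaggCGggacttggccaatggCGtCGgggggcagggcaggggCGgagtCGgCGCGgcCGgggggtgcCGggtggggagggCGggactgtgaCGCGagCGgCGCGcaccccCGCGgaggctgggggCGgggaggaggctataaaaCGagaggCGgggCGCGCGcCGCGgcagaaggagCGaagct
Pck1: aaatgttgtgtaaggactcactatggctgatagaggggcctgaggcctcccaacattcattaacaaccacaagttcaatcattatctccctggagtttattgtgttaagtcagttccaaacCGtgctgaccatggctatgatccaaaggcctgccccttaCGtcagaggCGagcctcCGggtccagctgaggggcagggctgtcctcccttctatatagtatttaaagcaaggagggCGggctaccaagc
G6pc: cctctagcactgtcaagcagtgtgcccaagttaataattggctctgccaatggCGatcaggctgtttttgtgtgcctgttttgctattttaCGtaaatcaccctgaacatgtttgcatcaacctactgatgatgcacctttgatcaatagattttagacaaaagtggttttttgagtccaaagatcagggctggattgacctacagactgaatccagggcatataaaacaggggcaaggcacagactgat
C3: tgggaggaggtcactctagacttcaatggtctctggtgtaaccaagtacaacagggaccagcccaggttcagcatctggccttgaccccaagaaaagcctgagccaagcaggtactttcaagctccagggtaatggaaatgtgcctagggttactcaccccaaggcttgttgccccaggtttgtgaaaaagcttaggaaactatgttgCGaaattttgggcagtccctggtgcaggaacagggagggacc
Ambp: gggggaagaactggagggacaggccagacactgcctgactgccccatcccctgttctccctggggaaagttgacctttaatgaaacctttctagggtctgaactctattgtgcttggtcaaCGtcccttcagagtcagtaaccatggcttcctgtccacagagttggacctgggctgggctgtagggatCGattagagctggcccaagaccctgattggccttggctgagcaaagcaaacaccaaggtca
Their positions are Tob1 chr11:94211204-94211453, plus strand, Pck1 chr2:173152823-173153072, plus strand, G6pc chr11:101367466-101367715, plus strand, C3 chr17:57228137-57228386, minus strand, Ambp chr4:63154173-63154422, minus strand. The 250 bases hold 32 CpG dinucleotides in Tob1, 5 in Pck1, 2 in G6pc, 1 in C3 and 2 in Ambp. Control regions covered 250 of these bases in Tob1, 102 in Pck1, 187 in G6pc and 0 in C3 and Ambp. In Pck1 the letters CGTCA, the complement of the core TGACG of a cyclic AMP response element, begin 90 bases before the RefSeq start. TATAAA begins 29 bases before the start of G6pc and 47 bases before that of Tob1.

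A gene was said to have a region at its start when a region overlapped the 1000 bases on either side of the annotated start by at least 1 base. The body ran from 1000 bases past the start to the annotated end, which 16914 genes have, and the window past the end was 5000 bases. Over all protein-coding genes 26.5% had a region at the start, 18.6% over the body and 15.5% past the end, and 39.0% at any of these positions.

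Occupancy of all 3 positions rose with RNA level, but not in the same way. Below 0.1 CPM, 2.52% of 3300 genes had a region at the start, 2.45% of those with a body had one over it and 4.15% had one past the end. At 1 to 10 CPM the start share was 20.3% (19.0 to 21.5%) of 3944 genes, while the body share was 8.27%. At 10 to 100 CPM the start share was 45.3% (44.1 to 46.6%) of 5973 genes and the body share 28.8% (27.7 to 30.0%). Starts thus gained regions at lower RNA levels than bodies did.

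Above 100 CPM the order of the positions turned. Among the 1221 genes of 100 to 1000 CPM, 58.3% (55.5 to 61.1%) had a region at the start, 66.0% (63.3 to 68.6%) over the body and 51.4% (48.6 to 54.2%) past the end. Among the 123 genes of 1000 CPM or more these shares were 60.2% (51.3 to 68.4%), 91.1% (84.7 to 94.9%) and 80.5% (72.6 to 86.5%). The start shares of these top classes have overlapping intervals, whereas the body and past-end shares do not.

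**Figure D1:**
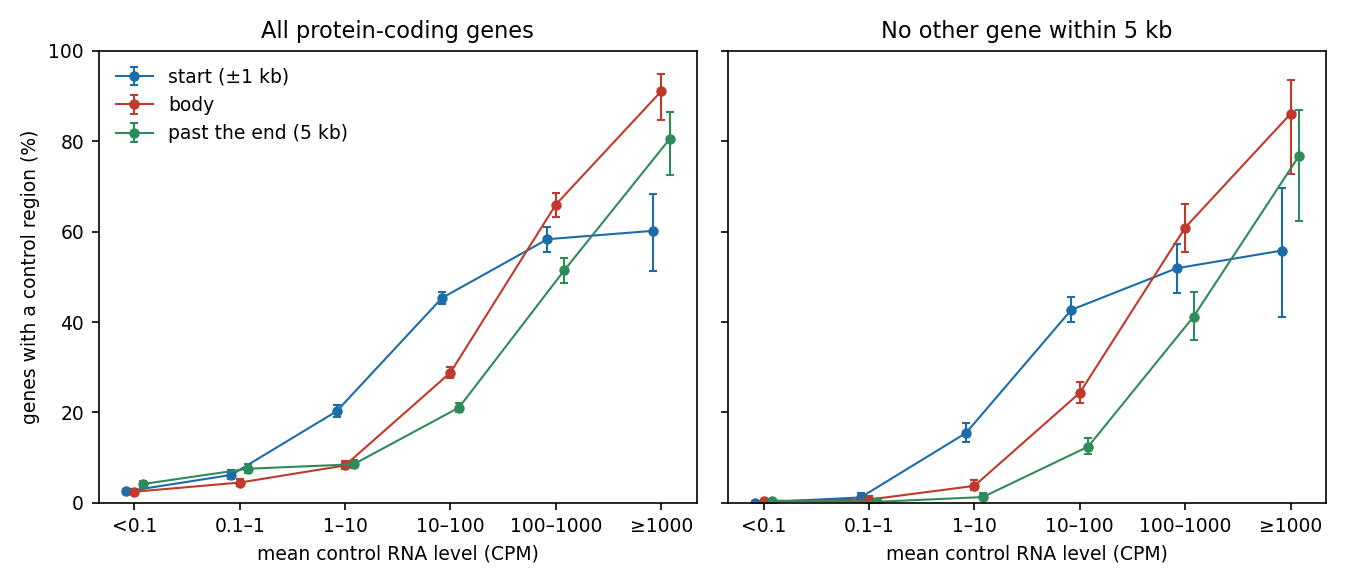
Share of protein-coding genes with a control region (y, percent) against class of mean control RNA level (x, CPM) for starts, bodies and the 5 kb past the end, for all genes (left) and for genes with no other table gene within 5 kb (right); bars are Wilson 95% intervals. Over all genes the start share is 58.3% at 100 to 1000 CPM and 60.2% in the top class, where the body share is 91.1%.

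Shares at low RNA levels were smaller away from other genes. Among the 5211 genes with no other gene of the table within 5 kb, the shares under 1 CPM were 0.439% at the start, 0.448% over the body and 0.400% past the end, against 4.11%, 3.35% and 5.63% over all genes under 1 CPM. At 10 CPM or more the isolated genes had 44.9%, 33.2% and 19.9%, against 47.7%, 36.1% and 27.1% over all. Of the 241 genes under 1 CPM with a region at the start, 109 (45.2%) had a gene of 10 CPM or more within 1000 bases of the start, and of the 5617 without a start region 309 had.

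Body shares also differed with gene length. Of genes of 100 to 1000 CPM, a body region was held by 26.9% (20.6 to 34.4%) of those under 5 kb, 61.9% (57.4 to 66.3%) of those of 5 to 20 kb, 77.9% (74.2 to 81.2%) of those of 20 to 100 kb and 85.9% (76.5 to 91.9%) of those of 100 kb or more. The start share ran from 64.3% to 51.3% over the same length classes, so under 5 kb starts stayed ahead of bodies. In genes of 100 kb or more the body share was the higher already at 10 to 100 CPM, 46.8% against 42.0% at the start. The body window grows with gene length, while the start window is fixed. Within each length class the body share was higher at 100 to 1000 CPM than at 10 to 100 CPM, for example 26.9% against 13.1% under 5 kb.

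The combinations of positions differed in RNA level. The 10449 genes with no region had a median of 0.980 CPM, the 2374 with a region only at the start 17.6 CPM, the 841 with one only over the body 26.6 CPM and the 906 with all 3 positions occupied 83.9 CPM. Of start-occupied genes of 1 to 10 CPM, 78.6% had no region elsewhere, and of the 74 start-occupied genes of 1000 CPM or more none did.

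The strength of start regions rose only a little with RNA level. Fold is the enrichment over background that the authors' peak caller gave each summit. The rank correlation of CPM with the highest summit fold at the start was 0.178 over 4464 genes, and the median fold went from 5.36 under 0.1 CPM to 6.14 at 10 to 100 CPM and 8.32 at 1000 CPM or more. The rank correlation of CPM with the covered share of the body was 0.454 over 16468 genes. These values describe genes that share 1 ChIP library and 3 RNA libraries, and genes are not independent replicates.

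Bodies differed more. The median covered share of the body was 0 in each class up to 10 to 100 CPM, 2.31% at 100 to 1000 CPM and 50.7% at 1000 CPM or more. In the top class 61 of 120 genes had at least 50% of the body covered. Where a gene had summits both at the start and in the body, the higher summit was often at the start. The body summit was the higher in 35.3% of 17 genes under 0.1 CPM, 50% of 16 at 0.1 to 1 CPM and 42.4% of 85 at 1 to 10 CPM. It was so in 30.1% of 915 genes of 10 to 100 CPM, 45.3% of 477 of 100 to 1000 CPM and 71.8% of 71 of 1000 CPM or more. The body value is the highest of all body summits, which can be many, with 20 in Alb against 1 at its start.

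Along genes of 10 kb or more, the place of highest coverage differed between CPM classes. At 10 to 100 CPM, 34.6% of 4668 genes were covered at the start itself, 35.3% at 100 bases past it, 4.84% at 500 bases and 0.664% at 2000 bases. In the 69 genes of 1000 CPM or more coverage was 39.1% at 100 bases, 23.2% at 500 bases and 42.0% at 5000 bases, with its highest value, 50.7%, at 4700 bases past the start. Upstream the profile dropped within 1000 bases in all classes, to 0.707% at 10 to 100 CPM.

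**Figure D2:**
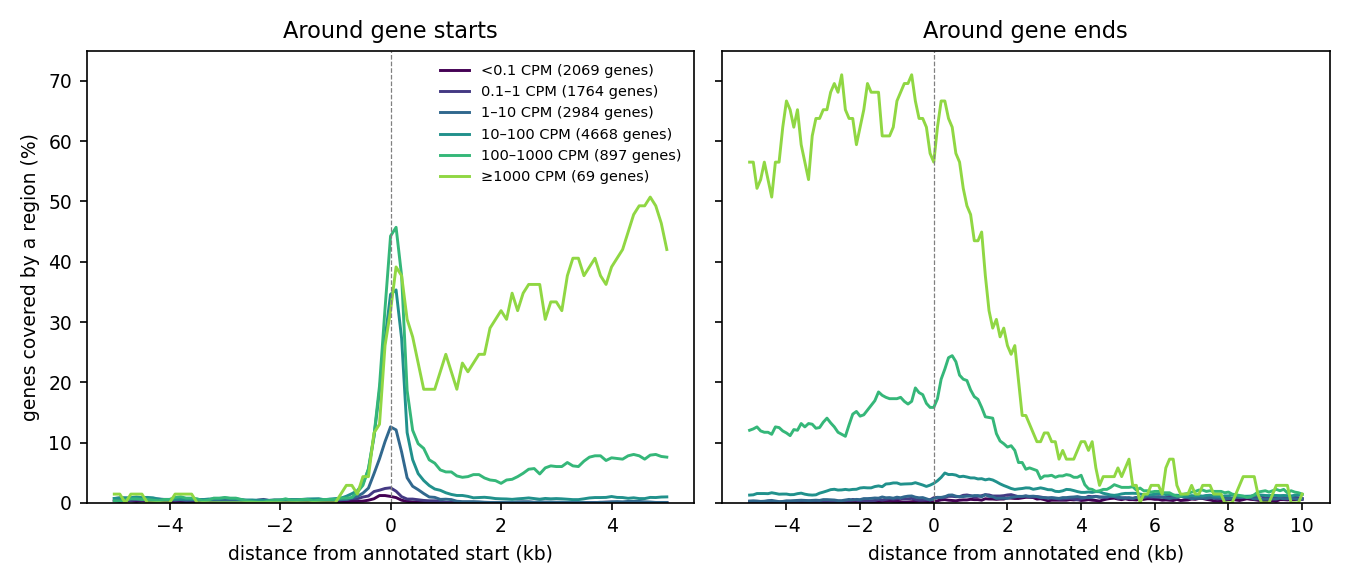
Percent of genes of 10 kb or more whose base at a given distance is covered by a control region (y), against distance from the annotated start (left) or end (right) in kb, by CPM class. Genes of 10 to 100 CPM show a peak of 35.3% just past the start and little beyond, whereas the 69 genes of 1000 CPM or more are also covered through the body and fall from 56.5% at the end to 5.80% at 5000 bases past it.

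The strongest summit at a start lay downstream of it in most genes, with a median of 58 bases past the start and 72.2% within 200 bases over 4464 genes. The median was 41 bases at 1 to 10 CPM, 60 at 10 to 100 CPM, 77 at 100 to 1000 CPM and 90 at 1000 CPM or more. In the 81 genes under 0.1 CPM it was 98 bases upstream, with 38.3% of summits downstream.

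Coverage also ran on past gene ends. In genes of 10 kb or more at 100 to 1000 CPM, 15.8% were covered at the annotated end, 24.4% at 500 bases past it and 2.79% at 5000 bases. Among genes with no other gene of the table in the following 10 kb, a single region spanned the annotated end in 27 of 54 genes of 1000 CPM or more, reaching a median of 1384 bases past it. At 10 to 100 CPM it did so in 38 of 2096 genes, with a median of 429 bases. The longest such run, 5359 bases, followed Errfi1, a feedback inhibitor of the epidermal growth factor receptor.

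Of 18 gluconeogenic genes, which make glucose in fasting, 17 had a region. That share was 39.0% over all genes and 86.6% at 100 to 1000 CPM. In 10 of the 18 all 3 positions were occupied, against 5.29% of all genes and 403 of the 1344 genes of 100 CPM or more. Pck1 (ENSMUSG00000027513, mm10 chromosome 2, 173153048 to 173159273, plus strand) stood at 3295, 3929 and 3843 CPM in control replicates 1, 2 and 3. A single region covered 100% of its body and 2317 bases past its end. Its folds were 8.22 at the start, 51.0 over the body and 55.5 past the end, so the region was strongest far from the promoter.

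G6pc (ENSMUSG00000078650, chromosome 11, 101367561 to 101377903, plus strand) had 329, 400 and 365 CPM, lower than Pck1 in each library. Its body was also covered in full, with folds of 7.19 at the start, 39.0 over the body and 24.9 past the end, and coverage ran 1681 bases beyond it. The start folds of both genes lie near the medians of their CPM classes, 8.32 and 6.92. Of 18 gluconeogenesis genes with a median of 381 CPM, 15 (83.3%) had a region at the start and 15 over the body. The shares were 26.5% and 18.6% over all genes, and 58.3% and 66.0% at 100 to 1000 CPM. Members ranged from 2.17 to 3689 CPM. Tat, tyrosine aminotransferase, at 2394 ± 241 CPM (SD, n = 3), was covered over its whole body, and Fbp1, fructose-1,6-bisphosphatase, at 716 ± 31.8 CPM over 82.3% of it. Pcx, pyruvate carboxylase, at 652 ± 35.9 CPM, had 4.0% of its body covered, the gene being 111 kb long. Pck2, the mitochondrial isoform of Pck1, was the member without a region, at 2.17 ± 0.385 CPM.

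Med19 itself (ENSMUSG00000027080, chromosome 2, 84678402 to 84688215) had 5.79, 9.02 and 11.2 CPM and no control region at any position, and 10.0% of its length overlaps other genes. Of 29 Mediator subunits in the table, with a median of 12.5 CPM, 9 (31.0%) had a region at the start, 3 (10.3%) over the body and 17 none. Over all genes the shares were 26.5% at the start and 18.6% over the body. Of the subunits 19 stood at 10 CPM or more, and the others lay between 1.99 and 10 CPM. The class shares were 45.3% and 28.8% at 10 to 100 CPM, and 20.3% and 8.27% at 1 to 10 CPM. Med25 (62.5 ± 6.08 CPM) and Med15 (46.9 ± 0.951 CPM), the most abundant, had none.

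Plasma protein genes were among the most abundant in RNA, beside others such as Cyp2e1, a cytochrome P450. Alb, albumin, had 57413, 62752 and 63439 CPM, with 98.2% of its body covered, a start fold of 6.43 and a body fold of 58.3. Of the 30 plasma protein genes, with a median of 3199 CPM, 27 (90%) had a body region and 18 (60%) one at the start. Over all genes of 1000 CPM or more, a class that many of them belong to, the shares were 91.1% and 60.2%. Apoc3 (1197 ± 98.2 CPM), an apolipoprotein, had one past the end alone, and Ambp and Itih1, which encode parts of the inter-alpha-trypsin inhibitors, had none. Apoe, Apoa1, Fga, Ahsg and Serpina3k were each occupied at all 3 positions. Over the 100 most abundant genes, 62 had a region at the start, 91 over the body and 81 past the end.

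C3 was occupied over its body and past its end. It had 15010, 9862 and 8558 CPM, highest in replicate 1, and 90.8% of its body was covered, yet no region lay within 1000 bases of its start. Of genes of 100 CPM or more, 343 had a region over the body and none at the annotated start, 197 of them with one past the end as well, and 86 of these had a region at another RefSeq start of the same gene. The other 257 included Cps1, the entry enzyme of the urea cycle (2563 ± 365 CPM, 89.0% of the body), Hpx, hemopexin, and Cyp3a11, a drug-metabolizing cytochrome P450 with 7.92% of its body covered.

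**Figure D3:**
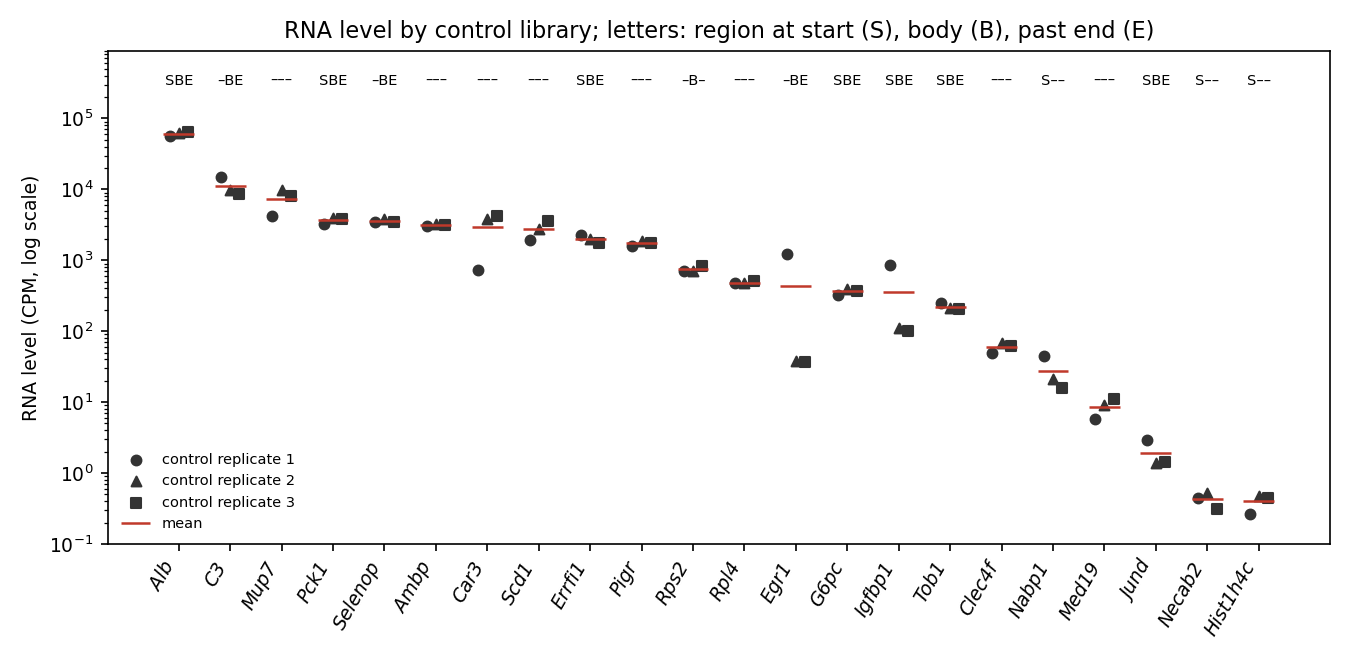
RNA level in CPM on a log axis (y) in each control library for 22 named genes (x), with the mean as a bar; the letters give the positions with a control region. Mup7, Ambp, Car3, Scd1 and Pigr have no region at a mean of more than 1000 CPM, while Necab2 and Hist1h4c have one at the start below 1 CPM.

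The strongest and widest regions lay over a few genes. Errfi1, with 2267, 1965 and 1741 CPM, held the highest summit of the list, a fold of 72.8 in a region of 19662 bases. Other high folds were 58.3 over Alb, 55.5 over Pck1 and 48.3 over Herpud1, a component of endoplasmic reticulum-associated degradation. The widest region, 49359 bases with 82 summits, lay over Egfr, the epidermal growth factor receptor, whose RNA was 339, 323 and 319 CPM. One of 49355 bases covered Ass1, argininosuccinate synthase, at 2578 ± 386 CPM. Outside protein-coding genes, the long noncoding RNA gene Neat1 carried a region of 31027 bases with a fold of 43.2. Of all regions 24.9% touched a start, 64.5% a body without a start, 6.29% only a past-end window and 4.32%, or 735 regions, none of them.

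Several of the highest start folds belonged to genes of moderate or low RNA level. Tob1, with 248, 211 and 202 CPM, had a start fold of 27.2. Nabp1, a single-stranded DNA binding protein, reached 26.1 with 44.6, 21.0 and 15.9 CPM, and Arl4d, a small GTPase, 25.7 with 4.47, 27.5 and 23.0 CPM. Hhex, a liver homeobox factor, had 25.1 at 20.5 ± 8.02 CPM. Jund, an AP-1 subunit, had the top fold, 32.8, at 1.91 ± 0.852 CPM. Its start in the table lies 1210 bases from the RefSeq start and its whole 1.67 kb is covered, and how far its counts stand for the transcript from that start was not tested.

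Some low-RNA genes with strong start regions share them with neighbours. Necab2, a neuronal calcium-binding protein gene, had 0.451, 0.519 and 0.315 CPM and the same summit, of fold 28.0, at its start as Osgin1 has past its end. It begins 463 bases beyond the end of Osgin1, an oxidative stress response gene at 285 ± 156 CPM. Regions past gene ends were shared as well. Ccdc152 (4.55 ± 0.713 CPM), with none at its start, overlaps Selenop, the selenium transport protein (3560 ± 187 CPM). The region past the end of Igfbp3, with a fold of 29.0, is the one over Igfbp1, whose end lies 3540 bases away. Such regions were counted for each gene they touch.

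Replication-type histone genes were another low-RNA group with occupied starts. Their mRNAs end in a stem-loop instead of a poly(A) tail. Of 47 members under 1 CPM, 21 had a region at the start (44.7%), against 4.11% of all genes under 1 CPM. Hist1h4c had 0.263, 0.479 and 0.451 CPM with a start fold of 25.4, and Hist1h1e 0.675 ± 0.199 CPM with 22.4. These genes are short, clustered and similar in sequence, so counts and regions can be shared between copies.

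Abundant RNA without a region was the converse. Of 1344 genes of 100 CPM or more, 170 (12.6%, 11.0 to 14.5%) had none. Mup7, a major urinary protein, had 4272, 9778 and 8004 CPM, and of 18 Mup genes of 10 CPM or more 16 lacked a region, but these are near-identical copies among which reads cannot be assigned with certainty. Car3, carbonic anhydrase 3, had 730, 3871 and 4224 CPM, and Scd1, stearoyl-CoA desaturase, 1954, 2724 and 3601 CPM, both lowest in replicate 1. Ambp (3134 ± 132 CPM) and Pigr, the polymeric immunoglobulin receptor (1749 ± 147 CPM), varied little between libraries. Other members with none were Cyp4a10, Cyp1a2 and Ugt2b1 of the drug metabolism list, in which Cyp2b10, at 5.4 CPM, also had none and 16 of 20 members had one. The 170 genes were shorter, with a median of 12.1 kb against 20.5 kb for the 1174 with a region.

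Ribosomal protein genes and liver regulator genes were occupied at different positions. Of 78 ribosomal protein genes, with a median of 103 CPM, 51 had a region at the start and 6 of 77 over the body. Of 18 hepatocyte transcription factors, with a median of 62.8 CPM, 9 had one at the start and 17 over the body; Nr0b2 was the exception. Rps2, the most abundant ribosomal protein gene, had 704, 713 and 822 CPM and 19.2% of its body covered, and Rpl4 had 478, 473 and 504 CPM and no region. Hnf4a, a nuclear receptor that maintains hepatocyte identity, had 1210 ± 156 CPM, 41.5% of its body covered and none at the start, and Cebpa, another hepatocyte regulator, 598 ± 44.1 CPM and 84.8%.

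Lists were also compared with all genes of the same CPM class. At 100 to 1000 CPM, 28 of 40 ribosomal protein genes had a region at the start and 4 over the body, against 58.3% and 66.0% of all genes of that class, and against 26.9% with a body region among its genes under 5 kb. Of 30 nuclear oxidative phosphorylation genes of that class 16 had a start region and 5 a body region, and of 12 proteasome subunits 5 and 2. The class held 3 hepatocyte transcription factors, too few to compare. At 10 to 100 CPM there were 14, of which 8 had a start region and 13 a body region, against 45.3% and 28.8% of all genes of that class. Of 8 urea cycle and amino acid genes of 100 to 1000 CPM, 3 had a start region and 7 a body region. Otc, ornithine transcarbamylase, had none there, at 304 ± 66.3 CPM.

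**Figure D4:**
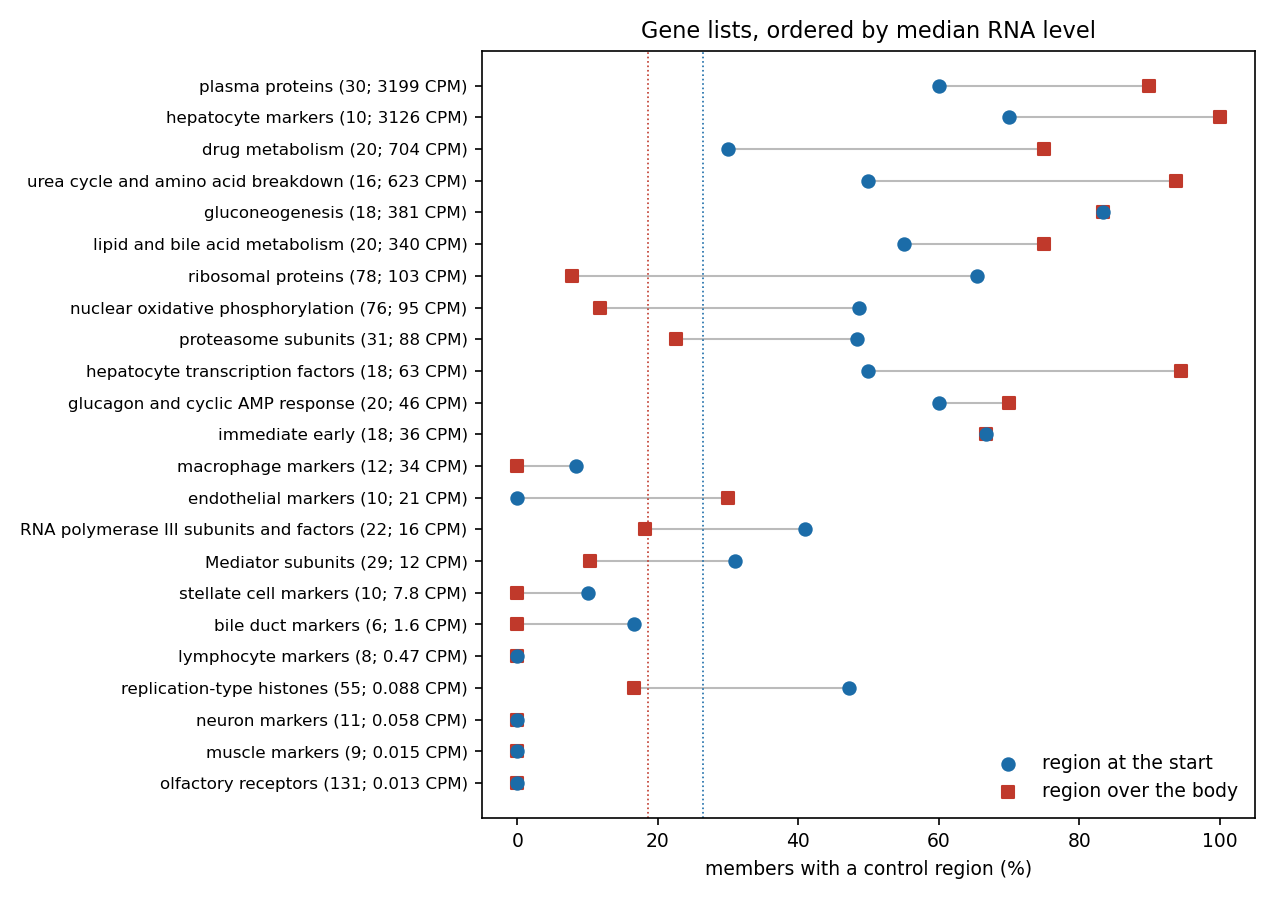
Percent of the members of 23 gene lists with a control region at the start (circles) or over the body (squares), lists ordered by median CPM with member number and median beside each name; dotted lines mark 26.5% and 18.6%, the shares over all protein-coding genes. Ribosomal protein genes sit at 65.4% for starts and 7.79% for bodies, hepatocyte transcription factors at 50% and 94.4%.

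Markers of other liver cells had RNA but few regions. Clec4f, a Kupffer cell lectin, had 49.7, 69.0 and 62.3 CPM, and Cd5l, a macrophage-secreted protein, 45.1, 64.0 and 56.7 CPM, both without a region. Of 12 macrophage markers, only Cd68 had a region, at its start with a fold of 3.96. Of 10 endothelial markers Stab2, Kdr and Egfl7 had one over the body, and of 10 stellate cell markers Reln had one at the start. Taking the members of these lists at 10 to 100 CPM, 1 of 22 had a region at the start and 3 over the body, against 45.3% and 28.8% of all genes of that class. The summed CPM of the macrophage list was 324, 430 and 400 in the 3 libraries, and how many such cells the ChIP library held was not tested.

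In bulk samples fewer cells of a type and less RNA per cell cannot be told apart. None of 11 neuron markers, 9 muscle markers or 131 olfactory receptor genes had a region. The median of each list was under 0.1 CPM, where 7.45% of all genes and 0.844% of isolated genes had one at any position. At such shares lists of 9 or 11 genes can hold none. Of 8 lymphocyte markers 1 had a region, past its end, and of 6 bile duct markers Sox9 had one at its start. Of 4033 RefSeq protein-coding genes outside the count table, 1.21% (0.920 to 1.60%) had a region at the start, and of 1151 table genes with no control count 1.65% (1.06 to 2.56%).

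Start occupancy differed with the CpG content of the promoter. RefSeq promoters, 250 bases before to 50 after the start, were matched to 12082 genes, and called CpG-rich at a GC content of at least 50% and an observed to expected CpG ratio of at least 0.6. At 100 to 1000 CPM, 78.6% (75.1 to 81.8%) of 571 CpG-rich genes had a region at the start, against 37.2% (32.2 to 42.5%) of 333 CpG-poor genes. The body shares in that class were 62.2% and 64.3%. At 10 to 100 CPM the start shares were 52.9% and 27.2% and the body shares 26.1% and 25.8%. Among isolated genes of 100 CPM or more the start shares were 80.3% (72.6 to 86.3%) of 127 CpG-rich and 34.5% (27.2 to 42.6%) of 142 CpG-poor genes, and the body shares 59.8% and 64.8%. Among isolated genes of 10 CPM or more, 29.4% of CpG-rich and 38.8% of CpG-poor genes had a body region. RNA levels differed between these groups, as 127 of 820 CpG-rich and 142 of 349 CpG-poor genes stood at 100 CPM or more. These pooled body shares therefore do not compare CpG-rich with CpG-poor genes at equal RNA level.

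**Figure D5:**
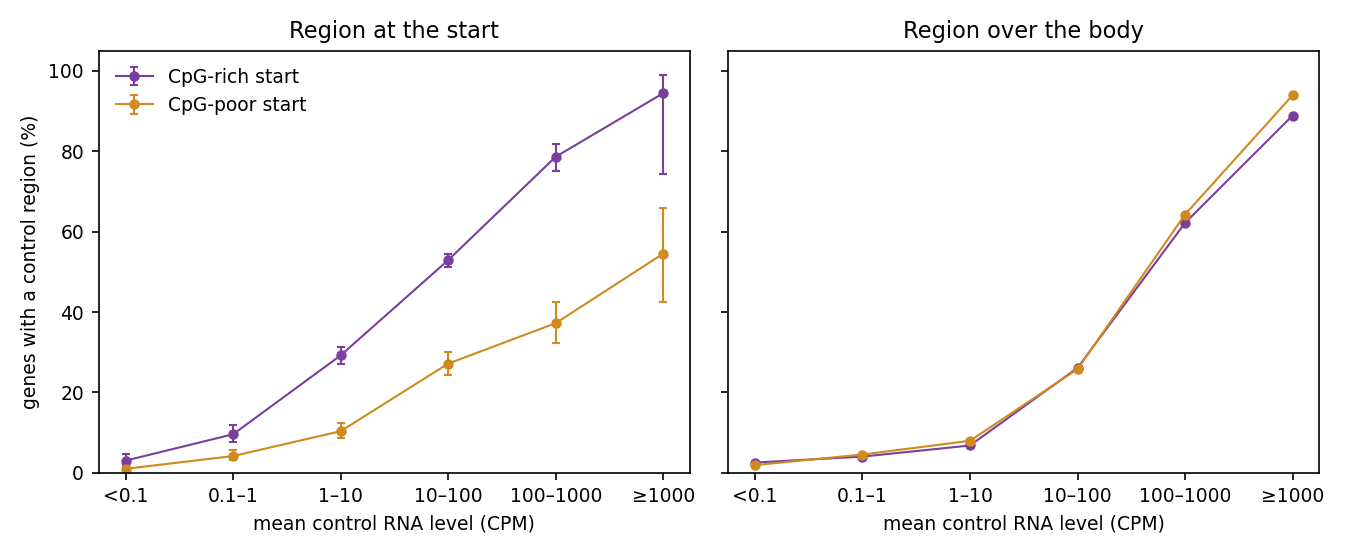
Share of genes with a control region at the start (left, with Wilson 95% intervals) and over the body (right), in percent, against CPM class, for CpG-rich and CpG-poor promoters. The start share is higher for CpG-rich promoters in every class, with 78.6% and 37.2% at 100 to 1000 CPM, where the body shares are 62.2% and 64.3%.

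The makeup of the classes shifted too. CpG-rich promoters made up 79.5% of matched genes at 10 to 100 CPM and 21.4% of the 84 matched genes of 1000 CPM or more. In that top class 17 of 18 CpG-rich (94.4%, 74.2 to 99.0%) and 36 of 66 CpG-poor genes (54.5%, 42.6 to 66.0%) had a region at the start. At 100 to 1000 CPM, where 63.2% of matched genes were CpG-rich, these shares were 78.6% and 37.2%. Within each kind the start share was thus higher in the top class, although it was 58.3% and 60.2% over all genes. For CpG-rich genes the intervals of these classes overlap.

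Start shares differed less with short motifs, which were searched on both strands. The cyclic AMP core TGACG was in 29.0% of the matched promoters and 20.8% of all 32851 RefSeq promoters, the TATA box TATAAA in 8.76% and 13.6%, and the CCAAT box in 38.6% and 37.4%. Among CpG-rich genes of 1 CPM or more, a start region was held by 53.5% (51.4 to 55.5%) of 2269 genes with TGACG and 45.2% (43.6 to 46.8%) of 3633 without. The CCAAT box gave 54.9% (52.9 to 57.0%) and 44.3% (42.7 to 46.0%). For TATAAA the shares were 53.4% (47.4 to 59.2%) with it and 48.1% (46.8 to 49.4%) without among CpG-rich genes. Among CpG-poor genes they were 17.1% (13.4 to 21.7%) and 22.5% (20.7 to 24.3%). The share with TATAAA was thus the higher among CpG-rich genes and the lower among CpG-poor genes. The intervals with and without it overlapped in both kinds of promoter, and no test of the difference was made. These matches describe letters in the window and not bound sites.

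Of 20 glucagon and cyclic AMP response genes, with a median of 46.4 CPM, 12 had a region at the start and 14 over the body. The shares of all genes of 10 to 100 CPM were 45.3% and 28.8%, but members ranged from 0.640 to 370 CPM. Gcgr, the glucagon receptor, had 370 ± 45.2 CPM and regions at all 3 positions. Ppargc1a, a coactivator of gluconeogenic genes, had 6.21 ± 1.76 CPM and a body region covering 0.203%. Pde4d, Nr4a2 and Nr4a3 had none, at 3.38 CPM or less. Of the 18 immediate early genes, with a median of 36.3 CPM, 12 (66.7%) had a region at the start and 12 over the body. The same class shares apply only in part here too, as members ranged from 1.11 to 427 CPM. Egr1, an early transcription factor, had its region over the body (54.5% covered) and its RNA was 427 ± 675 CPM, with 1 library far above the others. Igfbp1, a secreted binding protein of insulin-like growth factors, had 860, 111 and 102 CPM and was covered over its whole body. Which of these RNA levels matches the cells of the ChIP library was not tested.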

How the data were processed

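RNA-seq was made from 3 control and 3 knockout samples and ChIP-seq from 1 of each, and only the 4 control samples were used. The authors deposited a table of whole-number counts per Ensembl gene with mm10 positions; HISAT2 2.1.0, Bowtie2 2.2.3 and HTSeq 0.6.0 are named, without their roles, in the submitters' processing notes. No source used here states the strand setting or read filters. The control peak list, deposited by the authors in narrowPeak layout, gives a fold over background (ratio) and −log10 q per summit, at least 1.31; the notes name BWA, SAMtools and MACS2. Its 22793 summits lie in 16995 regions, called on this 1 library. No source used here states whether an input library was used.

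CPM was each count over the library's total, averaged over 3 libraries. No test was made: shares carry Wilson 95% intervals, and correlations are Spearman's, without p (Python 3.11.15, scipy 1.17.1). The interval arithmetic was tested on simulated data. Promoters were RefSeq GRCm38.p6, matched by symbol or synonym, 12082 within 1000 bases of the annotated start. The members, the 24 gene lists and the rules were chosen with earlier results of these data known. Named genes were Med19, Pck1 and G6pc, the extremes of abundance, fold and coverage, and the 2 most abundant members of each list; others are named where at most 5 members have or lack a region, or as widest or strongest regions, after their values were seen. Some genes that these rules pick are not reported here. Alternatives covered peak thresholds, windows, overlap, scaling (TMM of edgeR 4.0.16), filters and left-out libraries.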

Additional observations from a re-analysis of the deposited data

How the results depend on the processing

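The shares of genes with a region at the start, over the body and past the end stayed higher at 10 CPM or more than under 1 CPM under every alternative run. In each set of 3 values below the order is start, body, past end. With summits of a fold of at least 5 the shares were 35.2, 22.4 and 16.1% at 10 CPM or more and 2.59, 1.81 and 3.52% under 1 CPM, the rank correlations of CPM with start fold and covered body share were 0.144 and 0.364, and 346 genes of 100 CPM or more had no region. With a −log10 q of at least 5 the shares were 32.0, 18.1 and 12.6%, and 2.2, 1.49 and 3.11%. In isolated genes they were 44.9, 33.2 and 19.9%, and 0.439, 0.448 and 0.400%, the correlations 0.207 and 0.464, and 69 genes had no region. With at least 10 control counts the low class had 6.36, 4.39 and 7.83%.

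Start windows of 500 and 2000 bases gave 45.8 and 49.6% at 10 CPM or more, and 2000 bases gave 4.87% under 1 CPM. With at least 0.5 of the region inside the window the share was 46.5%. With at least 0.5 of the body covered, 2.40% and 0.105% of genes counted. Windows of 2000 and 10000 bases past the end gave 21.4 and 31.8%, and 3.31 and 9.32% under 1 CPM, and summits inside the window gave 26.0% past the end. TMM scaling moved none of these results beyond its interval or spread, nor did including the mitochondrial genes move a share.

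The count table holds only genes with a count in some library, so 3 alternatives were added after seeing the data. With RefSeq genes outside the table, the low class had 2.93, 2.69 and 3.68%, and without genes of 0 control counts it had 4.72% at the start and 6.39% past the end. Counting any RefSeq start gave 51.4% at 10 CPM or more.

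Leaving out each control library gave start shares of 47.8 to 47.8% at 10 CPM or more and 4.12 to 4.21% under 1 CPM, body shares of 36.0 to 36.2% and 3.27 to 3.36%, past-end shares of 27.2 to 27.2% and 5.64 to 5.66%, correlations of 0.171 to 0.180 and 0.452 to 0.455, and 169 to 177 genes with no region. No paired analysis was possible because no result comes from a test and only control samples were used. CPM per kb of exon was not run, since the files used here give no exon lengths. A single ChIP library gives no spread between immunoprecipitations, and an absent region means none above the authors' threshold. The depth of the ChIP library is unknown.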
